A study of Mus musculus with 14 samples.

Results

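The genes described here are those of the MHC class II pathway in cultured mouse CD8 T cells: H2-Ab1, H2-Aa, H2-Eb1, Cd74, Ciita, H2-DMa, H2-DMb1, H2-Oa and H2-Ob. They were taken by symbol from the gene count table, where all 9 were found among 55486 genes, 1 row each. RNA was sequenced from 14 libraries of CD8 T cells that were stimulated through CD3 and CD28 with antibodies on day 0 and harvested after expansion on day 8. The study asked what genetic loss or catalytic inhibition of DOT1L, the methyltransferase of lysine 79 on histone H3, does to the transcriptome of these cells.

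The libraries form 4 groups. The KO group (3 libraries) was heterozygous for CreERT2, a Cre recombinase activated by tamoxifen, homozygous for DOT1L-flox and heterozygous for OT-I. The WT group (3 libraries) carried CreERT2 and OT-I in the same way, with wild-type Dot1l in place of the floxed alleles, and 4-hydroxytamoxifen was added at 10 nM to both on day 0. In contrast, the DMSO and EPZ groups (4 libraries each) were wild type for CreERT2 and DOT1L-flox and heterozygous for OT-I. Every 2 days they were given either 0.1% DMSO or EPZ-5676, an inhibitor of the DOT1L enzyme. Its dose is labelled 10 mM in the description of the treatment but 10 uM in the library names, and nothing in the files decides between these. All 4 groups thus carry OT-I, a transgenic T cell receptor for an ovalbumin peptide on a class I molecule. The labels give no age and do not name the promoter that drives CreERT2. The libraries of a group are labelled as biological replicates. The library names give animals 1 to 4 in both the DMSO and the EPZ group, and different animals in KO and WT.

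Library totals ran from 5643724 to 20586093 counts. Dot1l was higher in the KO-labelled libraries than in WT, by 0.59 ± 0.07 on the log2 scale (SE; edgeR adjusted p = 1.3e-05), and by 0.70 (adjusted p = 0.0333) without the 4 libraries named next. A count over the whole gene does not test a deletion within it. The sex read from Xist and Ddx3y differed from the label in 4 of the 6 KO and WT libraries (KO 2, KO 3, WT 2 and WT 3) and in 0 of the 8 DMSO and EPZ libraries. These libraries are therefore called KO-labelled, and calls without the 4 libraries are given beside the results. The summed level of 6 CD8 T cell markers was 2861 to 3103 CPM (counts scaled to a common library total) in WT, 3274 to 3570.1 in DMSO, 2254 to 2481 in EPZ and 1601 to 1656 in the KO-labelled libraries. Of the CD3 chains of the T cell receptor complex, Cd3e and Cd3g showed no called change and Cd3d fell (-0.71 and -0.27), as did the CD8 chains Cd8a (-2.60 and -1.06) and Cd8b1 (-2.33 and -1.15) and the receptor chain Trac (-1.45 and -0.33), in KO-labelled against WT and in EPZ against DMSO, as log2 fold changes. Without the 4 libraries these 4 genes were still called lower in KO-labelled against WT.

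Class II molecules present peptides from the endocytic pathway to CD4 T cells. Each is a pair of an alpha and a beta chain that assembles on the invariant chain CD74, and the loading of peptide is helped by the H2-DM pair and restrained by the H2-DO pair. Professional antigen-presenting cells transcribe these genes together under CIITA, a co-activator that is recruited by the RFX, CREB and NF-Y factors bound to the X and Y boxes of their promoters. H2-DO is known for a narrower expression, above all in B cells. Mouse T cells, unlike activated human T cells, are known for little or no class II on their surface.

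The promoters of class II genes are known for these boxes, so the windows that could be read are shown first. RefSeq windows of 300 bases, from 250 bases before to 50 after the start of the gene (GRCm38.p6, the build known as mm10), were given for 6 of the 9 genes. Windows for H2-Ab1, Ciita and Cd74 were not used here. Both strands were searched for the X1 box consensus (14 letters, 10 of them fixed) with at most 1 mismatch among the fixed letters, for the Y box CCAAT, which reads ATTGG on the other strand, and for the cAMP response element TGACGTCA. Capitals mark those matches in the stretches below, which run 5′ to 3′ on the strand of the gene. The 2 windows of H2-DMa, not printed, matched X1 with 3 mismatches at best and held a Y box in 1 of the 2 only. The first 3 stretches hold an X1 box match followed by ATTGG, and the last 2 do not:
H2-DMb1 (chr17:34153070-34153149, plus strand): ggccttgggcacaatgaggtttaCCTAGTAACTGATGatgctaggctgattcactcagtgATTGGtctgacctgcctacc
H2-Eb1 (chr17:34305748-34305827, plus strand): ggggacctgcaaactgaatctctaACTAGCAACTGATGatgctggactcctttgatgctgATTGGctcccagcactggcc
H2-Ob (chr17:34238655-34238954, plus strand): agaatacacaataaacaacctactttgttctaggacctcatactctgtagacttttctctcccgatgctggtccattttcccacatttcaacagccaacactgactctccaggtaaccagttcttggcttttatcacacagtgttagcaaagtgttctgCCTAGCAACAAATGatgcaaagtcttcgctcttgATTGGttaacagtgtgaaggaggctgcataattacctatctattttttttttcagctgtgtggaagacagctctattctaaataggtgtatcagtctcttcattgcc
H2-Aa (chr17:34287852-34287931, minus strand): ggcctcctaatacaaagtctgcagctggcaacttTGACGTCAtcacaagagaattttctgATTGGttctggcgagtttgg
H2-Oa (chr17:34092129-34092428, plus strand): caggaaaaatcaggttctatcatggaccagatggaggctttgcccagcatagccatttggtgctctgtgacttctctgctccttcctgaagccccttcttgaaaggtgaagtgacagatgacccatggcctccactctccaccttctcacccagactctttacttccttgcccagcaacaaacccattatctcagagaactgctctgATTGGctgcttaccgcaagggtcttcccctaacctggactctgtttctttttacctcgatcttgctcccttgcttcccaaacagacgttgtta

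The X1 pattern matched H2-DMb1 with 0 mismatches and H2-Eb1 and H2-Ob with 1 each, and ATTGG followed after 23, 22 and 20 bases. Of all 32851 promoter windows of this length, 1.97% held the X1 pattern with at most 1 mismatch, 37.4% held the Y box and 1.79% held the cAMP response element. The pattern followed by ATTGG at 20 to 23 bases, a spacing chosen after these windows had been seen, was held by 11 windows (0.0335%). These belonged to H2-DMb1, H2-Eb1, H2-Ob, H2-DMb2, H2-Eb2, the class I genes H2-D1, H2-M3, H2-Q4, H2-Q6 and H2-Q7, and BC051142. The H2-Oa window held ATTGG at base -43, and its best X1 match had 2 mismatches, a closeness reached by 22.9% of all windows. Of the genes with the paired boxes, H2-Ob and H2-D1 (log2 fold changes of 0.01 and 0.03) were not called in either comparison below. H2-DMb2 was called lower in KO-labelled against WT and not called in EPZ against DMSO. H2-DMb1, H2-Eb1 and H2-Eb2 were too weak for the test. H2-DMb2 passed the filter on low counts through WT, in which it was higher. H2-Oa, whose window held no such pair at the cutoff of at most 1 mismatch, was called lower in both comparisons. X1 matches with more mismatches were not searched for at that spacing, and a link between the boxes and the changes was not tested.

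The class II genes ranged from 2 well-expressed accessory chains to classical chains that were close to silent, with H2-Ob and H2-Ab1 between. Per kilobase of exon, H2-Oa, the DO alpha chain, was the highest, at 28.4 ± 2.34 CPM per kb in WT, 9.89 ± 0.469 in KO-labelled, 39.0 ± 3.95 in DMSO and 28.0 ± 5.72 in EPZ (SD, n = 3, 3, 4 and 4). H2-DMa, the DM alpha chain, followed at 11.5 ± 1.06, 6.85 ± 0.438, 12.6 ± 0.879 and 10.7 ± 1.13 CPM per kb. H2-Ob, the DO beta chain, stood at 1.75, 2.02, 2.94 and 3.64 CPM per kb in WT, KO-labelled, DMSO and EPZ, and H2-Ab1, the beta chain of the classical A molecule, at 1.37, 3.69, 0.575 and 2.05, above H2-Ob in KO-labelled alone. H2-Aa, the alpha chain of the same molecule, stood at 0.012 to 0.109 CPM per kb as a group mean. H2-Oa, H2-DMa and H2-Ob together took 93.0% ± 0.337 of the counts of the 9 genes in WT, 79.0% ± 2.90 in KO-labelled, 97.6% ± 0.768 in DMSO and 92.5% ± 0.914 in EPZ. H2-Ab1 alone took 3.70% ± 0.856 in WT, 15.5% ± 1.61 in KO-labelled, 1.29% ± 0.557 in DMSO and 5.08% ± 0.663 in EPZ. H2-Aa, H2-Eb1 and Cd74 together took 0.446% ± 0.179 in DMSO, 0.591% ± 0.126 in EPZ, 1.46% ± 0.707 in WT and 3.34% ± 1.5 in KO-labelled. The transcripts of the accessory chains thus outweighed those of the classical chains in every group. In bulk RNA a change in how many cells transcribe a gene and a change in the RNA per cell cannot be told apart.

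**Figure D1:**
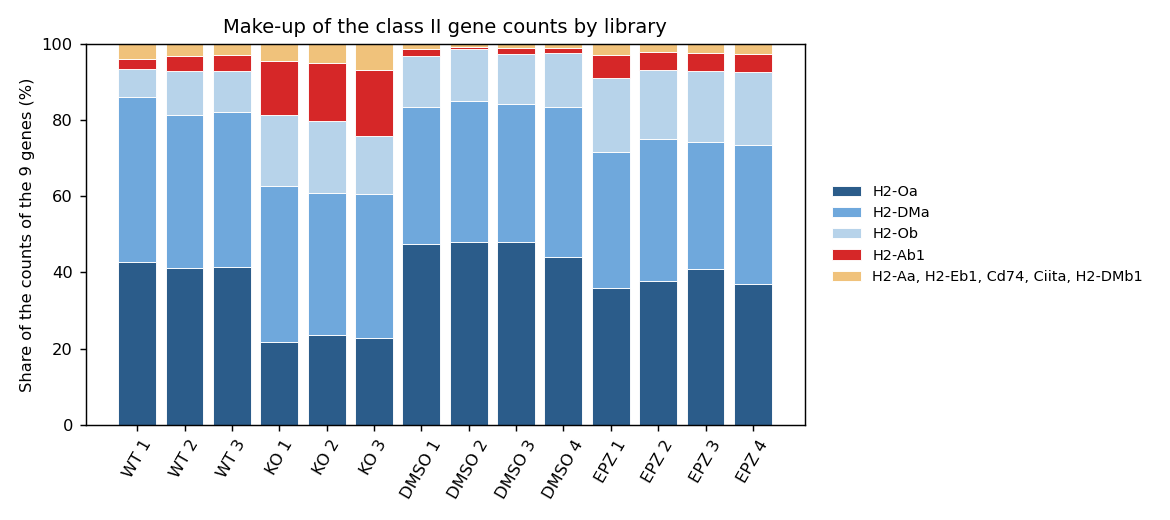
Share of the counts of the 9 genes (%, y axis) taken by each gene in each of the 14 libraries (x axis), with the 5 weakest genes as 1 segment. The H2-Ab1 segment averaged 3.70% in WT and 15.5% in KO-labelled libraries, and 1.29% in DMSO and 5.08% in EPZ.

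Of the 9 genes, 4 passed the filter on low counts in KO-labelled against WT and 3 were called, 1 higher and 2 lower, where 40.4% of the 11570 genes tested were called (20.3% higher and 20.2% lower). In EPZ against DMSO 5 passed and 3 were called, 2 higher and 1 lower, where 20.2% of 12208 genes were called (11.9% higher and 8.31% lower). Ciita passed that filter through the EPZ libraries, in which it was higher, so its call is a part of that count that the filter favoured. The median log2 fold change of those that passed was -0.24 against -0.01 for all genes tested in the first comparison, and 0.31 against -0.01 in the second. The called members pointed in opposite directions in each comparison. A call is an adjusted p under 0.05 in edgeR's quasi-likelihood test, with Benjamini-Hochberg adjustment over all genes tested.

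**Figure D2:**
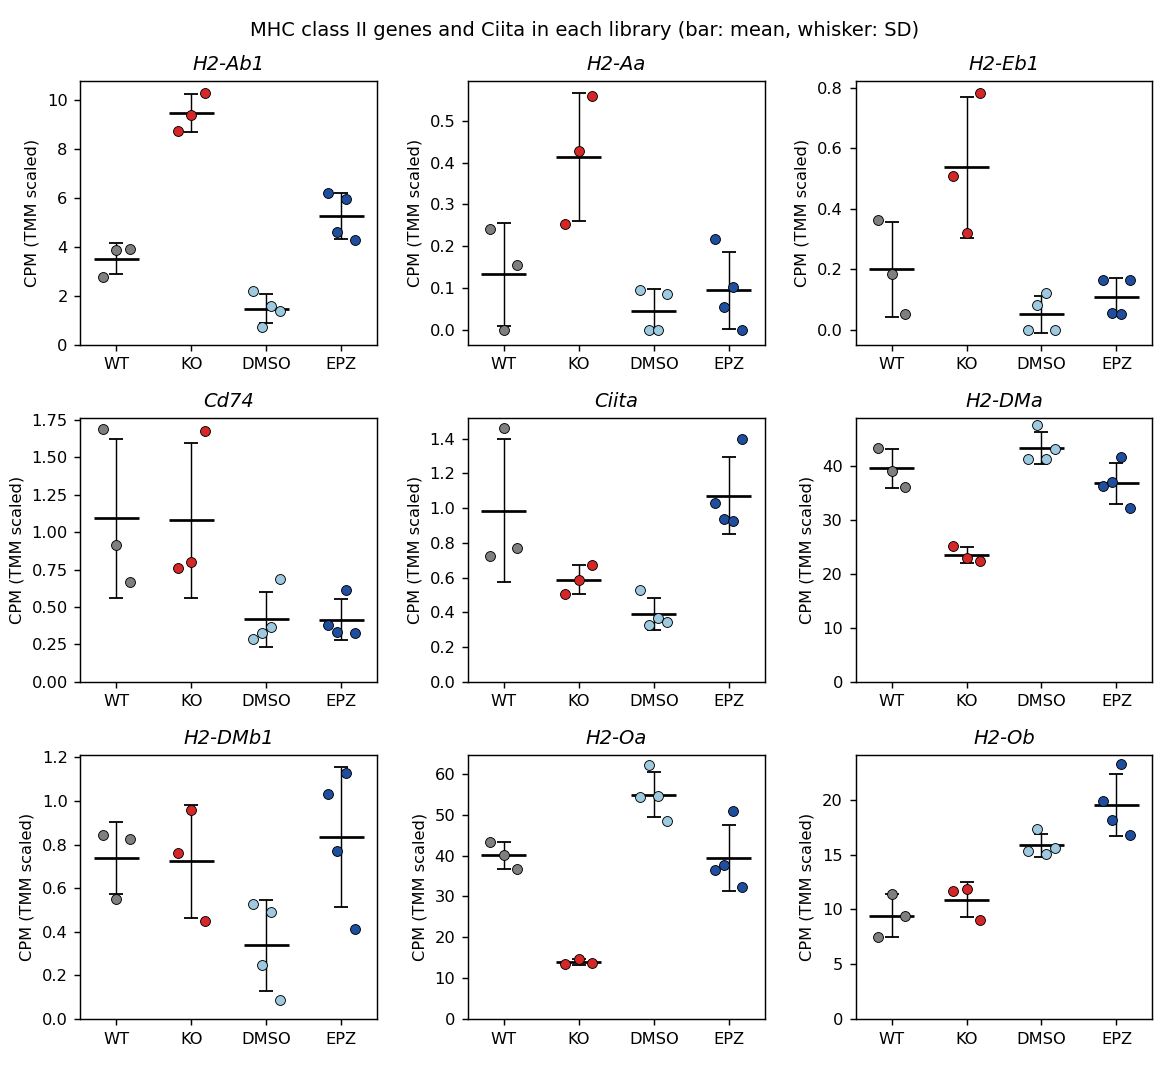
Level of each gene (CPM scaled with TMM factors, y axis) in every library of the 4 groups (x axis), with the mean as a bar and the SD as a whisker; each panel has its own scale. H2-Ab1 lay at 8.74 to 10.3 CPM in KO-labelled against 2.78 to 3.91 in WT, whereas H2-Oa lay at 13.4 to 14.7 against 36.7 to 43.3.

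H2-Ab1 encodes the beta chain of the classical class II molecule A (ENSMUSG00000073421, mm10 chromosome 17, 34257689 to 34269419, plus strand, protein coding). It stood at 2.78, 3.85 and 3.91 CPM in WT 1 to 3 and at 8.74, 9.39 and 10.3 CPM in KO-labelled 1 to 3. Every KO-labelled library lay above every WT library. The rise was 1.41 ± 0.17 on the log2 scale (SE; edgeR adjusted p = 2.5e-05). Without the 4 libraries whose sex differed from the label, 1 library was left in each group, assumed to vary like the DMSO and EPZ libraries, and the log2 fold change was 1.65 (adjusted p = 0.085).

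In DMSO 1 to 4 H2-Ab1 stood at 2.20, 0.737, 1.59 and 1.38 CPM, and in EPZ 1 to 4 at 6.18, 4.62, 5.96 and 4.27 CPM. All EPZ libraries lay above all DMSO libraries, and each animal's EPZ library was 2.81 to 6.27 times as high as its DMSO library. The log2 fold change was 1.78 ± 0.26 (SE; edgeR adjusted p = 9.9e-04). Across the groups the order was KO-labelled, EPZ, WT and DMSO, and the libraries of no neighbouring pair overlapped. H2-Ab1 has 8 annotated transcripts in GENCODE M21, 3 of them protein coding, and the first non-coding one starts 5520 bases before the first coding start. Counts per gene do not tell these transcripts apart.

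H2-Aa, the alpha chain that pairs with the H2-Ab1 product (ENSMUSG00000036594, chromosome 17, 34282744 to 34287823, minus strand), was nearly absent. Its counts summed to 5 in WT, 15 in KO-labelled, 3 in DMSO and 7 in EPZ. The level was 0.242, 0 and 0.155 CPM in WT and 0.253, 0.427 and 0.559 in KO-labelled, so the lowest KO-labelled library lay just above the highest WT library. The ratio of the scaled pooled counts was 2.79 (exact 95% binomial interval 0.965 to 9.83) for KO-labelled over WT and 1.81 (0.413 to 10.8) for EPZ over DMSO. Such intervals hold counting error but no spread between libraries. Neither interval excludes 1, so a difference was not detectable at this depth. Per kilobase, the pooled H2-Ab1 level was 35.5 times the H2-Aa level in WT (14.8 to 111), 33.2 times in KO-labelled (19.9 to 60.03), 41.4 times in DMSO (13.7 to 205) and 77.3 times in EPZ (37.2 to 194).

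H2-Eb1, the beta chain of the second classical molecule E (ENSMUSG00000060586, chromosome 17, 34305867 to 34316674, plus strand), was just as weak. It held 5 counts in WT, 17 in KO-labelled, 2 in DMSO and 7 in EPZ. Its level was 0.0515 to 0.363 CPM in WT and 0.320 to 0.783 in KO-labelled, and the groups overlapped. The count ratio of KO-labelled over WT was 3.17 (1.12 to 11.0) and that of EPZ over DMSO 2.71 (0.516 to 26.8). With no filter on low counts, edgeR gave H2-Eb1 an adjusted p of 0.131 and H2-Aa one of 0.216 in the first comparison. H2-Ea, the partner chain of H2-Eb1, held 0 counts in all 14 libraries, which over the pooled libraries of a group allows up to 0.0905 CPM in WT, 0.0843 in KO-labelled, 0.0567 in DMSO and 0.0440 in EPZ (3 counts).

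Cd74 encodes the invariant chain, the chaperone of new class II molecules, which antigen-presenting cells make in large amounts (ENSMUSG00000024610, chromosome 18, 60803848 to 60812652, plus strand). It stood at 1.69, 0.916 and 0.670 CPM in WT and 0.760, 0.800 and 1.68 in KO-labelled, and at 0.287 to 0.688 in DMSO and 0.328 to 0.617 in EPZ. The groups of each comparison overlapped. Cd74 did not pass the filter in either comparison, and its count ratios were 1.05 (0.633 to 1.74) and 1.07 (0.590 to 1.97). Per kilobase the pooled H2-Ab1 level was 2.45 times that of Cd74 in WT (1.65 to 3.74) and 6.12 times in KO-labelled (4.33 to 8.89), and 2.62 times in DMSO (1.61 to 4.44) and 8.25 times in EPZ (5.65 to 12.5). H2-Ab1 thus rose in both comparisons beside a Cd74 level whose count ratio stayed close to 1.

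Ciita, the co-activator of class II transcription (ENSMUSG00000022504, chromosome 16, 10480059 to 10528418, plus strand), was weak in every library. It stood at 0.527, 0.327, 0.367 and 0.344 CPM in DMSO 1 to 4 and at 1.03, 0.935, 0.925 and 1.40 CPM in EPZ 1 to 4. The groups did not overlap and each of the 4 animals was higher with EPZ. The log2 fold change was 1.34 ± 0.29 (SE; edgeR adjusted p = 0.00781), from 22 counts in DMSO and 71 in EPZ. As Ciita passed the filter through its higher group, the value with no filter on low counts is given beside it, 1.35 (adjusted p = 0.0192). In WT it stood at 0.725, 1.46 and 0.773 CPM and in KO-labelled at 0.507, 0.587 and 0.671 CPM, with every KO-labelled library below every WT library. Too few counts were present for the test there, and the ratio of KO-labelled over WT was 0.674 (0.366 to 1.22), from 21 and 29 counts. Ciita overlaps Dexi on the opposite strand, a gene with 3217 counts over all libraries, which was not called in either comparison (-0.22 and -0.08 on the log2 scale). The strand setting of the counting is not given in the sources used here, so reads of such overlapping genes may not have been separated.

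H2-DMa encodes the alpha chain of H2-DM, which exchanges peptides on class II molecules (ENSMUSG00000037649, chromosome 17, 34119541 to 34139101, plus strand). It stood at 43.5, 39.2 and 36.2 CPM in WT and at 25.3, 23 and 22.5 CPM in KO-labelled, with no overlap. The fall was -0.73 ± 0.09 on the log2 scale (SE; edgeR adjusted p = 4.2e-05), and -0.78 (adjusted p = 0.0298) without the 4 libraries of differing sex. In DMSO it stood at 41.3, 47.7, 41.3 and 43.3 CPM and in EPZ at 36.4, 37.1, 41.7 and 32.2 CPM. These groups overlapped through EPZ 3, and the log2 fold change of -0.23 ± 0.09 (SE) was not called (edgeR adjusted p = 0.0815). It was called without EPZ 3 (-0.30, adjusted p = 0.0331) and with all 14 libraries in 1 fit (adjusted p = 0.0466). H2-DMa overlaps Brd2 on the opposite strand, which held 82085 counts over all libraries and was not called (0.05 and -0.06). Like H2-Ab1, H2-DMa has 8 annotated transcripts, 3 of them protein coding. The first non-coding one starts 3291 bases before the first coding start, and counts per gene do not tell them apart.

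H2-DMb1 encodes a beta chain of H2-DM (ENSMUSG00000079547, chromosome 17, 34153072 to 34160230, plus strand). It stood far below its partner, at 0.549 to 0.846 CPM in WT, 0.448 to 0.960 in KO-labelled, 0.0860 to 0.527 in DMSO and 0.411 to 1.13 in EPZ. In each of the 4 animals the EPZ library was higher, by 1.96 to 4.77 times, although the groups overlapped. The count ratio was 2.45 (1.44 to 4.34) for EPZ over DMSO and 1.00 (0.567 to 1.78) for KO-labelled over WT. H2-DMb1 did not pass the filter in these comparisons, and with no filter its adjusted p in EPZ against DMSO was 0.0888. Per kilobase the pooled H2-DMa level was 23.9 times that of H2-DMb1 in WT, 14.5 times in KO-labelled, 58.7 times in DMSO and 20.7 times in EPZ.

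H2-DMb2, a near copy of H2-DMb1 that also encodes a DM beta chain, moved otherwise. It held 65 counts in WT and 15 in KO-labelled, with a log2 fold change of -2.17 ± 0.34 (SE; edgeR adjusted p = 2.3e-04), and 80 in DMSO and 78 in EPZ (-0.44 ± 0.34, edgeR adjusted p = 0.392). H2-DMb2 passed the filter in the first comparison through WT (1.69 to 2.38 CPM, against 0.320 to 0.633 in KO-labelled), so the filter favoured this call. With no filter on low counts it was still called lower. Reads that fit both copies may have been split or dropped by the counting, so the share of each is uncertain. Without the 4 libraries of differing sex the H2-DMb2 call was lost. H2-Eb2, a relative of H2-Eb1, held 0 counts in WT, 3 in KO-labelled, 2 in DMSO and 7 in EPZ.

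H2-Oa encodes the alpha chain of H2-DO, which binds H2-DM and restrains peptide exchange (ENSMUSG00000024334, chromosome 17, 34092340 to 34095234, plus strand). It stood at 43.3, 40.1 and 36.7 CPM in WT and at 13.4, 14.7 and 13.6 CPM in KO-labelled, a narrow range far below the controls. The log2 fold change was -1.49 ± 0.10 (SE; edgeR adjusted p = 1.2e-07), and -1.69 (adjusted p = 0.00762) without the 4 libraries of differing sex. In DMSO it stood at 54.3, 62.1, 54.7 and 48.5 CPM and in EPZ at 36.5, 37.8, 51.0 and 32.4 CPM. EPZ 3 reached into the DMSO range, and H2-Oa was lower with EPZ in each of the 4 animals, at 0.609 to 0.932 times the DMSO level. The fall was -0.47 ± 0.13 (SE; edgeR adjusted p = 0.0246). This call was lost without DMSO 2 (adjusted p = 0.0688), EPZ 1 (0.0644), EPZ 2 (0.0624) or EPZ 4 (0.0685). BC051537, which overlaps H2-Oa on the opposite strand, held 121 counts over all libraries.

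H2-Ob, the beta chain of H2-DO (ENSMUSG00000041538, chromosome 17, 34238903 to 34254414, plus strand), did not move with its partner. It stood at 7.49, 11.4 and 9.38 CPM in WT and at 11.7, 11.9 and 9.06 in KO-labelled, and the groups overlapped. The log2 fold change was 0.26 ± 0.16 (SE; edgeR adjusted p = 0.23), and 0.64 (adjusted p = 0.192) without the 4 libraries of differing sex. With DMSO it stood at 15.3, 17.4, 15.1 and 15.6 CPM and with EPZ at 19.95, 18.2, 23.3 and 16.8 CPM, higher with EPZ in each of the 4 animals, at 0.31 ± 0.11 on the log2 scale (SE; edgeR adjusted p = 0.0588). That value was called without EPZ 4 (adjusted p = 0.0401). The ratio of H2-Oa to H2-Ob per kilobase was 16.1 in WT (14.2 to 18.3), 4.86 in KO-labelled (4.25 to 5.55), 13.3 in DMSO (12.3 to 14.4) and 7.75 in EPZ (7.26 to 8.27). In single libraries it was 13.5 to 22.1 in WT and 4.41 to 5.76 in KO-labelled, and 11.9 to 13.9 in DMSO and 7.00 to 8.36 in EPZ. The chains of the DO pair thus changed by unequal amounts, and in neither comparison did the libraries' ratios overlap.

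**Figure D3:**
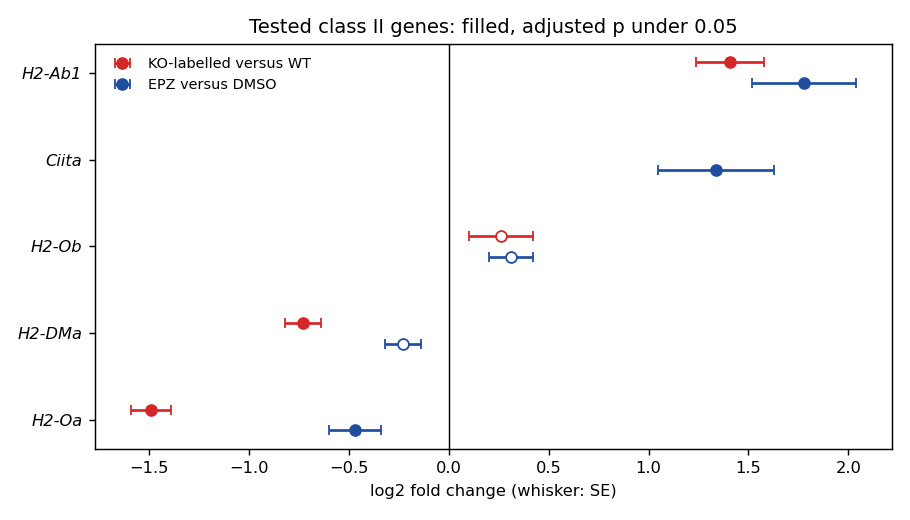
Log2 fold change (x axis, with SE as whiskers) of the class II genes that passed the filter, for KO-labelled against WT (red) and EPZ against DMSO (blue); filled points had an adjusted p under 0.05. H2-Ab1 lay at 1.41 and 1.78 and H2-Oa at -1.49 and -0.47, and Ciita passed the filter in the second comparison only.

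Ordered by mean level, the groups fell into different orders for different genes. H2-Oa and H2-DMa ran DMSO, WT, EPZ, KO-labelled. For H2-Oa the libraries of WT and EPZ overlapped while the other neighbours did not, and for H2-DMa only EPZ and KO-labelled were apart. H2-Ob ran EPZ, DMSO, KO-labelled, WT, with a gap between DMSO and KO-labelled alone. Ciita and H2-DMb1 ran EPZ, WT, KO-labelled, DMSO, and among these neighbours only WT and KO-labelled were apart, for Ciita. Cd74 ran WT, KO-labelled, DMSO, EPZ, with KO-labelled and DMSO apart. H2-Aa and H2-Eb1 ran KO-labelled, WT, EPZ, DMSO, and their neighbours overlapped except KO-labelled and WT for H2-Aa.

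The animals that gave both a DMSO and an EPZ library showed the same split. H2-Ab1, Ciita, H2-DMb1 and H2-Ob were higher with EPZ in 4 of 4 animals, Cd74 and H2-Aa in 3, H2-Eb1 in 2, H2-DMa in 1 and H2-Oa in 0. Animal 4 had the largest EPZ to DMSO ratio of Ciita (4.06) and of H2-DMb1 (4.77), each from few counts, but not of H2-Ab1 (3.10). Animal 2 had the largest ratio of H2-Ab1 (6.27) and the smallest of H2-Oa (0.609). With the animal as a block in the fit, the same number of members, 3, was called.

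**Figure D4:**
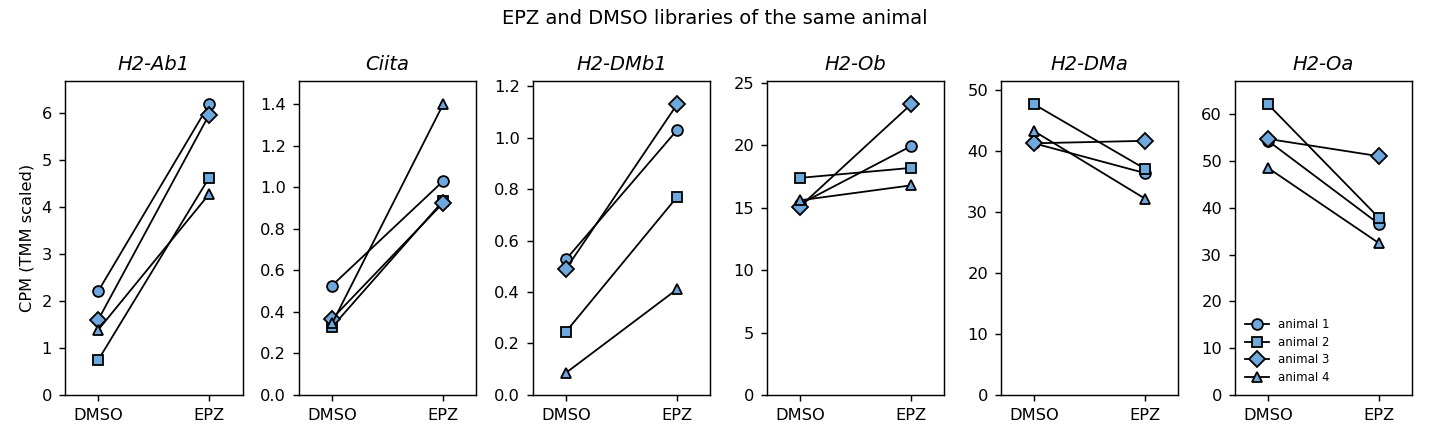
Level (CPM scaled with TMM factors, y axis) of 6 class II genes in the DMSO and the EPZ library of each of 4 animals (lines). H2-Ab1, Ciita, H2-DMb1 and H2-Ob were higher with EPZ in all 4 animals, H2-DMa in 1 and H2-Oa in 0.

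Whether the genes move together can also be read from the order of the libraries within a group. Among the 4 genes that passed the filter in every comparison (H2-Ab1, H2-DMa, H2-Oa and H2-Ob), H2-DMa and H2-Oa shared the order WT 1, WT 2, WT 3 and the order EPZ 3, EPZ 2, EPZ 1, EPZ 4, but not that of KO-labelled, where KO 1 was the highest for H2-DMa and the lowest for H2-Oa, nor that of DMSO. H2-Ab1 ran the opposite way in WT, on 23, 21 and 76 counts in WT 1 to 3. In DMSO the highest library was DMSO 2 for H2-DMa, H2-Oa and H2-Ob, and that library was the lowest for H2-Ab1, with 9 counts. EPZ 4 was the lowest EPZ library for all 4 genes, H2-Ab1 included. With so few libraries and H2-Ab1 counts, counting error alone can set such an order, and the orders were not tested. Over all 14 libraries, which differ in group, the log2 level of H2-Ab1 had a Pearson correlation of -0.834 with that of H2-DMa and -0.828 with H2-Oa, 0.642 with H2-DMb1, 0.454 with Ciita, 0.390 with Cd74 and -0.194 with H2-Ob, as a description that rests on the group differences.

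The protein-coding genes whose log2 level over the 14 libraries was most like that of H2-Ab1, among 11251 compared, were Tmem37 (Pearson r = 0.967), Synj2 (0.966), Ptpn3 (0.962), Klhdc8b (0.961), Tcp11l1 (0.954) and Fam241b (0.953). Their likeness rests on the same 4 groups: Fam241b stood at 1.29 CPM in WT, 3.47 in KO-labelled, 0.474 in DMSO and 1.70 in EPZ. None of the other class II genes that passed the filter was among them. H2-Aa and H2-Eb1 did not pass it, so they were not compared and could not appear.

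The contrast of the 2 effects, KO-labelled minus WT less EPZ minus DMSO, asked whether a gene changed by different amounts. Of 7 members that passed the filter over all 14 libraries 3 were called, all lower, where 7.6% of 12639 genes were called (3.29% higher and 4.31% lower), and their median was -0.51 against -0.03 for all genes tested. H2-Oa differed by -1.03 ± 0.19 (SE; edgeR adjusted p = 0.00269), Ciita by -1.95 ± 0.48 (adjusted p = 0.0189) and H2-DMa by -0.51 ± 0.13 (adjusted p = 0.0235). H2-Oa and H2-DMa thus had the more negative fold change in KO-labelled, and Ciita, called higher with EPZ, lay at a lower count in KO-labelled than in WT. The Ciita call was lost with no filter on low counts (-1.96, adjusted p = 0.0508) and without KO 1 (0.0513) or KO 2 (0.0666). The H2-DMa call was lost when any of KO 2, KO 3, WT 1, DMSO 1, DMSO 4 or EPZ 3 was left out (0.0544 to 0.104). Without the 4 libraries of differing sex 0 members were called, at -1.22 for H2-Oa (adjusted p = 0.164), -1.87 for Ciita (0.471) and -0.55 for H2-DMa (0.335). The contrast of H2-Ab1 was -0.36 ± 0.34 (SE; edgeR adjusted p = 0.582).

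The 2 control groups differed in the class II genes as well. In WT against DMSO 5 of 7 members that passed were called, 3 higher and 2 lower, where 50.5% of all genes tested were called (25.7% higher and 24.8% lower). H2-Ab1 (1.20 ± 0.27, SE; edgeR adjusted p = 0.00162), Cd74 (1.33 ± 0.47; 0.0262) and Ciita (1.13 ± 0.36; 0.019) were higher in WT, and H2-Ob (-0.77 ± 0.15; 3.4e-04) and H2-Oa (-0.46 ± 0.13; 0.00578) were lower. Without WT 2 and WT 3 and the 2 KO-labelled libraries of differing sex, H2-Ob (-1.08, adjusted p = 0.00347) and Cd74 (2.03, 0.0223) were called. Cd74 passed the filter through WT and KO-labelled libraries, in which it was higher than in DMSO, so the filter favoured its call. With no filter on low counts it was still called (1.32, edgeR adjusted p = 0.0352). The Cd74 call was lost without WT 1 (adjusted p = 0.19), DMSO 1 (0.0925) or DMSO 2 (0.0609) and with DESeq2 (0.0548). That of Ciita was lost without WT 2 (adjusted p = 0.0953) or DMSO 2 (0.051), with no filter on low counts (0.0725) and with DESeq2 (0.07). CreERT2, 4-hydroxytamoxifen, DMSO and the experiment itself differ between these groups and cannot be told apart.

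Beside the members, H2-DMb2 alone was called among the 6 other genes tested between H2-Oa and H2-Eb1 in KO-labelled against WT. Of all genes tested there, 40.4% were called. H2-DMb2 passed the filter through the WT libraries, in which it was higher. The class I peptide transporter genes Tap1 (-0.01) and Tap2 (0.05) and the immunoproteasome genes Psmb8 (-0.18, edgeR adjusted p = 0.0525) and Psmb9 (-0.14), which lie between H2-DMb2 and H2-Ob, were not called. In EPZ against DMSO 1 of 7 was called, the antisense transcript Gm50335, which overlaps H2-DMa (-1.05 ± 0.22, edgeR adjusted p = 0.00675). Of all genes tested there, 20.2% were called.

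**Figure D5:**
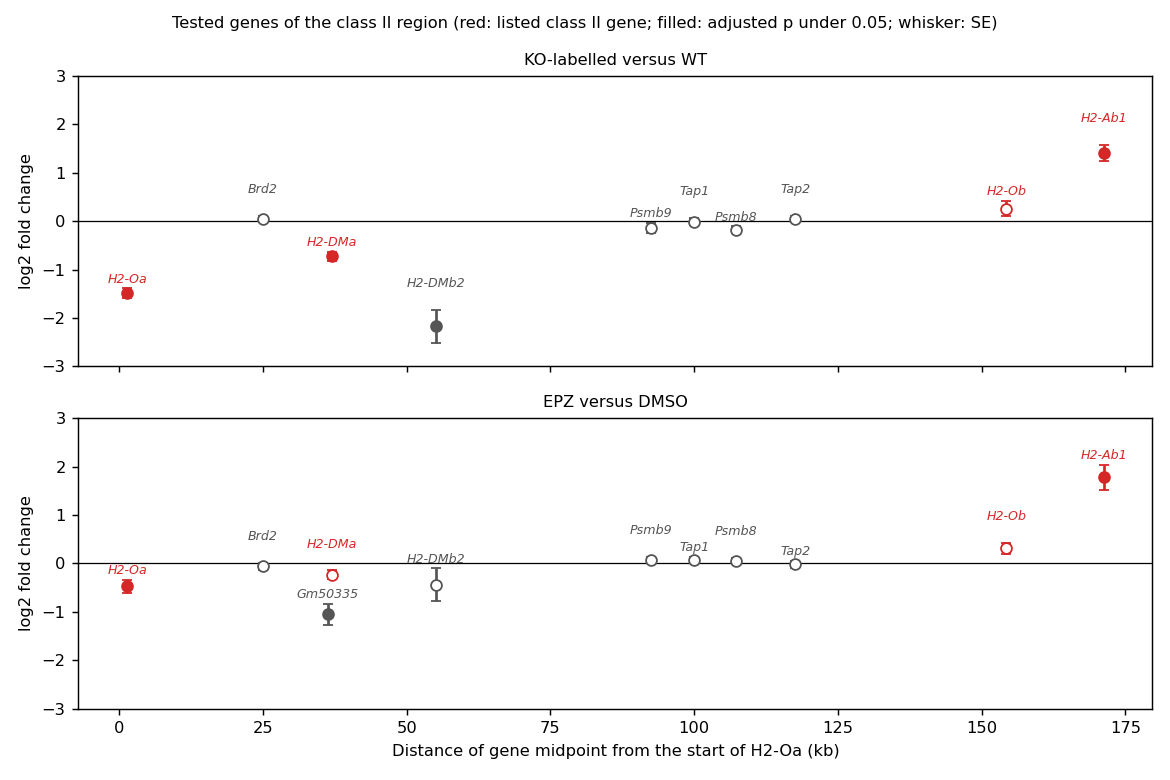
Log2 fold change (y axis, with SE as whiskers) of the tested genes of the class II region against the distance of their midpoint from the start of H2-Oa (kb, x axis), for KO-labelled against WT (top) and EPZ against DMSO (bottom). Class II genes are in red, and filled points had an adjusted p under 0.05. The antigen-processing genes Psmb9, Tap1, Psmb8 and Tap2 in the middle lay between -0.18 and 0.08, while H2-Oa at one end fell and H2-Ab1 at the other rose.

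The factors that assemble on class II promoters were all expressed. Of 7 such genes (Rfx5, Rfxap, Rfxank, Nfya, Nfyb, Nfyc and Creb1) 0 rose and 2 fell in KO-labelled against WT, with a median of -0.21. Of all genes tested there, 40.4% were called. The 2 that fell were Creb1, which binds the cAMP response element of the X box (-0.24, edgeR adjusted p = 0.0113), and Rfxank, a subunit of RFX (-0.30, 0.0333). In EPZ against DMSO 1 rose, the NF-Y subunit Nfya (0.24, 0.0341), and 0 fell, with a median of -0.01. Of all genes tested there, 20.2% were called. The calls of this list were weak. In KO-labelled against WT the count was 0 without KO 1, without KO 2, with DESeq2 or without the 4 libraries of differing sex, and 1 without KO 3, WT 2 or WT 3. In EPZ against DMSO it was 0 without DMSO 2, DMSO 3, EPZ 1, EPZ 2 or EPZ 4 and with no filter on low counts, 0 higher and 1 lower without DMSO 4, and 1 higher and 1 lower with the animal as a block.

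Of 8 genes on the path from interferon gamma to CIITA, 2 rose and 2 fell in KO-labelled against WT, and 2 rose and 2 fell in EPZ against DMSO. Of all genes tested, 40.4% were called in the first comparison and 20.2% in the second. Ifng, the cytokine that induces CIITA in many cell types, rose from 2.16 ± 0.870 CPM to 12.2 ± 1.01 (SD, n = 3 each; log2 fold change 2.47 ± 0.20, edgeR adjusted p = 7.6e-07) and from 0.722 ± 0.336 to 2.30 ± 0.631 with EPZ (SD, n = 4 each; 1.77 ± 0.32, adjusted p = 0.00322). In EPZ against DMSO, Ifng passed the filter through the EPZ libraries (1.46 to 2.98 CPM, against 0.516 to 1.22 in DMSO), so the filter favoured that call. With no filter on low counts this list still had 2 genes called higher and 2 lower there. Ifngr2, the signalling chain of the interferon gamma receptor, fell from 12.4 ± 0.188 to 1.43 ± 0.459 CPM in KO-labelled (-2.99 ± 0.19, edgeR adjusted p = 1.2e-07) and stood at -0.40 with EPZ (adjusted p = 0.124). Jak2 rose by 0.58 in KO-labelled. Jak1 fell in both (-0.46 and -0.30), and Irf2 fell with EPZ (-0.24). Irf1 (0.27, adjusted p = 0.0278), a transcription factor downstream of the receptor, rose with EPZ, and stood at -0.13 in KO-labelled, where it was not called. It was named after its values were seen. Without EPZ 4, 1 gene of this list rose and 1 fell in EPZ against DMSO, and with the animal as a block 2 rose and 3 fell. Ifng (2.06), Jak2 (0.59) and Ifngr2 (-3.59) were still called in KO-labelled against WT without the 4 libraries of differing sex, and Jak1 (-0.44, edgeR adjusted p = 0.0945) was not.

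Genes of peptide loading and turnover were called higher in 4 and lower in 1 of 7 tested in KO-labelled against WT, and higher in 2 and lower in 0 of 6 with EPZ. Of all genes tested, 40.4% were called in the first comparison and 20.2% in the second. Marchf8, a membrane-bound ubiquitin ligase, rose from 9.75 ± 1.3 to 32.7 ± 4.29 CPM (SD, n = 3 each; 1.80 ± 0.13, edgeR adjusted p = 3.5e-07), and with EPZ from 8.11 ± 0.932 to 14.1 ± 0.719 (SD, n = 4 each; 0.80 ± 0.10, adjusted p = 4.9e-04). Lgmn, an endosomal protease, rose from 12 to 73 counts (2.47 ± 0.33, edgeR adjusted p = 5.9e-05). It passed the filter through the KO-labelled libraries (1.65 to 2.24 CPM, against 0.361 to 0.366 in WT), so the filter favoured its call. With no filter on low counts the list still had 4 genes called higher and 1 lower. Ctss, the cathepsin that trims the invariant chain, fell in KO-labelled (-0.49, 8.9e-05), and Ifi30, a lysosomal thiol reductase, rose with EPZ (0.47, 0.0208). Without the 4 libraries of differing sex Marchf8 (1.65) alone of this list was called in KO-labelled against WT. In EPZ against DMSO the count was 1 higher without DMSO 2 or EPZ 4, and 2 higher and 1 lower with the animal as a block. Marchf1, the ligase that removes class II from the surface of dendritic and B cells, held 0 counts in all libraries (up to 0.0158 CPM over the 14 pooled, 3 counts).

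Class I presentation is the counterpart of class II for cytosolic peptides. Of 14 genes tested 3 rose and 1 fell in KO-labelled against WT, with a median of 0.01, and 1 rose with EPZ, with a median of 0.07. Of all genes tested, 40.4% were called in the first comparison and 20.2% in the second. Calr, a chaperone of class I assembly, rose by 0.61 (edgeR adjusted p = 1.8e-05) and 0.34 (0.00993), Canx rose by 0.26, and Nlrc5, the class I relative of CIITA, fell by 0.44 in KO-labelled (adjusted p = 1.6e-04). H2-K1 (-0.01 and -0.07), H2-D1 (0.01 in KO-labelled) and B2m (0.00 and -0.07) were not called. Psmb9 (-0.40) alone of this list was called in KO-labelled against WT without the 4 libraries of differing sex. With the animal as a block 2 genes rose with EPZ.

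Markers of antigen-presenting cells were measured because such cells carry far more class II RNA than T cells. Of 15 B cell markers, Ms4a1, Fcer2a and Blnk held 0 counts in all 14 libraries and 9 held at most 20 counts in all. The summed level of the list was 484 to 594 CPM in WT, 124 to 145 in KO-labelled, 1042 to 1296 in DMSO and 427 to 558 in EPZ, nearly all from Ighm and Ighd. Without those genes it was 9.94 to 10.8, 6.33 to 7.31, 10.9 to 13.2 and 10.9 to 15.6 CPM. Ighm fell in both comparisons (-2.08 and -1.17), as did Ighd (-2.37 and -1.54), and Cd79b fell in KO-labelled (-1.46), whereas Bank1 rose (1.60 and 0.78). In KO-labelled against WT, Ighd passed the filter through the WT libraries and Bank1 through the KO-labelled ones, where each was higher. Ighm and Cd79b (-1.66) were still called lower in KO-labelled against WT without the 4 libraries of differing sex, while Ighd (-1.50, edgeR adjusted p = 0.222) and Bank1 (1.58, 0.0665) were not called. H2-Ab1 thus rose in both comparisons while the sum of the whole B cell list was lower, and without Ighm and Ighd that sum was lower in KO-labelled and overlapped between EPZ and DMSO.

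Of 16 myeloid and dendritic cell markers, Xcr1, Clec9a, Siglech, Cd209a and Spi1 held 0 counts in all libraries and 12 held at most 20 counts. The summed level was 11.5 to 16.1 CPM in WT and 33.8 to 47.2 in KO-labelled, and 6.96 to 12.0 in DMSO and 8.69 to 10.3 in EPZ. Most of it came from Cd68 and from Itgax, an integrin that activated CD8 T cells also make, which rose by 1.93 in KO-labelled (2.15 without the 4 libraries of differing sex, also called) and stood at -0.04 with EPZ. Without Itgax and Cd68 the other 14 genes summed to 3 counts in WT and 74 in KO-labelled, of which Cd14 gave 37 and Zbtb46 15, and to 9 in DMSO and 21 in EPZ, of which Zbtb46 gave 12. Cd14 and Zbtb46 were singled out after their values were seen. These sums lay at 0 to 0.121, 1.60 to 3.36, 0.0819 to 0.239 and 0.246 to 0.360 CPM, so they were higher in KO-labelled and in EPZ, as H2-Ab1 was. With no filter on low counts 4 genes of the list were called higher in KO-labelled. The part of these markers in the H2-Ab1 values was not tested. The summed level of 6 CD4 and regulatory T cell markers was 378 to 394 CPM in WT, 207 to 243 in KO-labelled, 438 to 516 in DMSO and 279 to 316 in EPZ, with Il2ra (-0.92 and -0.59) and Ctla4 (-0.91 and -1.27) lower in both comparisons, Zbtb7b higher in KO-labelled (0.70) and Cd4 lower with EPZ (-1.27). Il2ra (-1.01) was the only one of them called in KO-labelled against WT without the 4 libraries of differing sex. With the animal as a block, 1 gene of this list rose with EPZ and 4 fell, against 0 and 4 without it.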

How the data were processed

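The authors deposited read counts per Ensembl gene for 14 libraries, with no normalization. Per the submitters' processing notes, TopHat2 2.1, Bowtie 1.1 and HTSeq were used with mm10, and per the labels' protocols the libraries were made with a stranded mRNA kit. No source used here gives the strand setting of the counting. The table's unnamed row (0 counts) was not used. Replicate pairs differed beyond sampling noise (chi-square per degree of freedom 2.05 to 18.1 over genes with at least 20 counts).

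The test was edgeR 4.0.16's, in R 4.3.3 (TMM, filterByExpr at its minimum count, 10, and minimum total, 15, quasi-likelihood F-test, Benjamini-Hochberg over all genes tested, threshold 0.05). KO was fitted with WT and EPZ with DMSO alone. The contrast of effects and WT against DMSO used all 14 libraries. CPM are counts scaled with TMM factors over all libraries, given as mean ± SD. The SE is the fold change divided by the root of F. Levels per kilobase use the exon union of GENCODE M21. Likeness used log2(CPM + 0.5). Ratios of pooled counts have exact 95% binomial intervals. They and the floor of 3 counts cover counting error only, and the reads carry no molecular identifiers. Alternatives were other normalizations, filters, DESeq2 1.42.0, glmTreat at a fold of 1.5, other sets of libraries and a replicate block. On simulated counts for KO against WT (11484 genes), 87.6% of 2-fold and 100.0% of 4-fold changes were recovered, and for EPZ against DMSO (12274 genes) 89% and 100.0%. The simulated counts had the same dispersion for every gene, and changes were given only to a small set of genes that passed the filter. The recovery thus does not cover the class II genes below the filter.

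The library names pair DMSO and EPZ by animal. The correlation of deviations from the group means was 0.538, -0.0525, -0.112 and 0.422 for animals 1 to 4. The members and lists were chosen with earlier results of these data known. The result for 1 gene of the lists is not reported here, and the counts leave it out. Named genes are all members, up to 3 called genes with the smallest adjusted p from each other list and comparison, markers at 0, Dot1l, Xist and Ddx3y, the 6 genes most like H2-Ab1 (H2-Aa and H2-Eb1 did not pass the filter) and called genes of the class II region.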

Additional observations from a re-analysis of the deposited data

Results flagged for a closer look

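The effect in KO-labelled against WT and the effect in EPZ against DMSO differed by the test of their difference for 3 class II genes, each with a lower value in the first: Ciita by -1.95, H2-Oa by -1.03 and H2-DMa by -0.51 on the log2 scale (edgeR adjusted p = 0.0189, 0.00269 and 0.0235). H2-Oa was lower than its control in both comparisons, whereas Ciita was called higher with EPZ and held 21 counts in KO-labelled against 29 in WT. The difference for Ciita was not called with no filter on low counts (adjusted p = 0.0508). No class II gene had a DMSO or EPZ library far from the other 3 of its group by Dixon's 95% criterion, and groups of 3 were not tested. The libraries of differing sex are all in the KO and WT groups, and without them 0 of these 3 differences was called, with 1 library left in each of those groups.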

How the results depend on the processing

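For KO-labelled against WT the count of class II genes called was 3, and 3 when any single library was left out. It was 2 without the 4 libraries of differing sex, a set chosen after the data were seen, with 10 libraries in 1 fit. For EPZ against DMSO the count of 3 became 1 with a filter of 10 CPM, 1 with glmTreat at a fold of 1.5 and 5 with all 14 libraries in 1 fit, and 2 to 4 when single libraries were left out. For the contrast of effects the count of 3 became 0 with glmTreat and 0 without the 4 libraries, and 1 to 3 with single libraries left out. For WT against DMSO the count of 5 became 2 with the filter of 10 CPM, 3 with DESeq2, 0 with glmTreat and 2 without the 4 libraries, and 3 to 5 with single libraries left out. The filter of 10 CPM leaves 3 members to test, and the other causes were not tested. The animal as a replicate block in EPZ against DMSO gave 3 calls, and the replicate number as a replicate block in KO-labelled against WT, where it marks different animals (correlations of 0.0485, -0.152 and -0.150), also gave 3. Some values changed sign. In the contrast, Cd74 (-0.04) ranged from -0.45 to 0.43 and H2-Ob (-0.07) from -0.19 to 0.06 with single libraries left out, and without the 4 libraries they stood at -1.20 and 0.32. In WT against DMSO, H2-DMa (-0.14) became 0.00 without the 4 libraries. All 162 recomputed levels stayed within 1 SD of their main value. Depth limits H2-Aa, H2-Eb1, Cd74, Ciita and H2-DMb1, which held 2 to 71 counts per group.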
